A study of Rattus norvegicus with 6 samples.

Results

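The genes described here encode proteins that divide a cell: the kinases and ubiquitin ligase partners that drive entry into and exit from mitosis, the centromere and kinetochore, the spindle with its motors, the spindle checkpoint, the condensins and the cytokinesis machinery. They were chosen by gene symbol, as the rows of the deposited expression table whose symbols belong to a set of these gene families and whose expected counts sum to 10 or more over the libraries. This gave 66 of the 13728 genes of the table, and the rule uses the symbol and the summed count, not a difference between the samples, although it was written with earlier results of these data known. Genes outside the table were not analysed here.

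The study compared 3 samples of rat endometrial epithelial organoids (rEEOs) with 3 samples of rat bone marrow mesenchymal stem cells (rBMSCs) by bulk sequencing of poly(A) RNA, in a project on repair of the injured endometrium. The rEEOs were cultures grown in Matrigel with an expansion medium from glandular fragments of the uteri of young female SD rats. The rBMSCs were a purchased product of red fluorescent protein (RFP)-labeled cells, grown in dishes in DMEM/F12 with serum, so that they are from a single supplier. The labels name no treatment of either culture, and cell type, donor, medium and culture form change together between the groups and cannot be told apart. The labels do not say whether samples of a group came from separate animals or cultures, so the p-values measure only the spread between these samples, which may be technical.

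Mitotic genes are known to be transcribed in a wave that peaks late in the cell cycle, and many of their proteins are destroyed as the cell leaves mitosis. In a bulk sample their transcripts are therefore used as a readout of how many cells are dividing, and fewer dividing cells cannot be told apart from less of the RNA in each cell. In the endometrium, epithelial division is known to follow ovarian hormones, and organoids divide under the growth factors and Wnt agonists of the medium. Cultured mesenchymal cells divide under serum.

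The libraries held between 10457958 and 15421501 expected counts. All 7 epithelial markers were higher in rEEOs, with a summed level of 2.54 to 3.00 TPM (a level scaled for library and transcript length) in rBMSCs and 4629 to 5203 TPM in rEEOs. Of 9 mesenchymal markers 8 were lower in rEEOs, with summed levels of 41220 to 43516 TPM in rBMSCs and 171.7 to 298.3 TPM in rEEOs, nearly all of the latter from Vim. Pdgfrb and Thy1 were at 0 in all rEEOs libraries. Among the haematopoietic markers 5 were held, and their summed level lay between 0.39 and 1.40 TPM in rEEOs.

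One library stood apart for these genes. Taking each gene's rEEOs counts, scaled to library size, in order, replicate 1 was the highest of the 3 rEEOs libraries for 61 of the 66 genes, beside 41.4% of all genes tested, and it was the lowest for 5, beside 41.0%. Replicate 2 was the lowest for 55 genes, beside 32.5% of all genes. In 19 genes the level in replicate 1 was at least 4 times that in both other rEEOs libraries, which held for 4.98% of all genes. Main counts below, and the statistics of some single genes, are given with and without replicate 1. For other genes only the fit with all libraries is given, and their values may also rest on it.

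Most of the mitotic genes had lower levels in rEEOs compared to rBMSCs. Summed over all 66 genes, the rBMSCs libraries held 2903, 2814 and 3021 TPM. The rEEOs libraries held 1588, 536.7 and 646.3 TPM in replicates 1, 2 and 3. The 60 genes with a negative fold change were picked by this same contrast, which sets the direction of their sums and medians. From these 60 genes the rBMSCs libraries held 2834, 2744 and 2944 TPM. The rEEOs libraries held 1483, 208.2 and 371.5 TPM from them in replicates 1, 2 and 3. The means for the 60 genes were 2841 ± 101 (SD, n = 3) and 688 ± 694 TPM (SD, n = 3), so the SD of rEEOs was as large as its mean. The 3 rBMSCs libraries lay close together and above every rEEOs library. A typical gene of the 60 stood at 49.7% of its rBMSCs mean in rEEOs replicate 1, at 5.20% in replicate 2 and at 10.9% in replicate 3 (medians over genes).

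**Figure D1:**
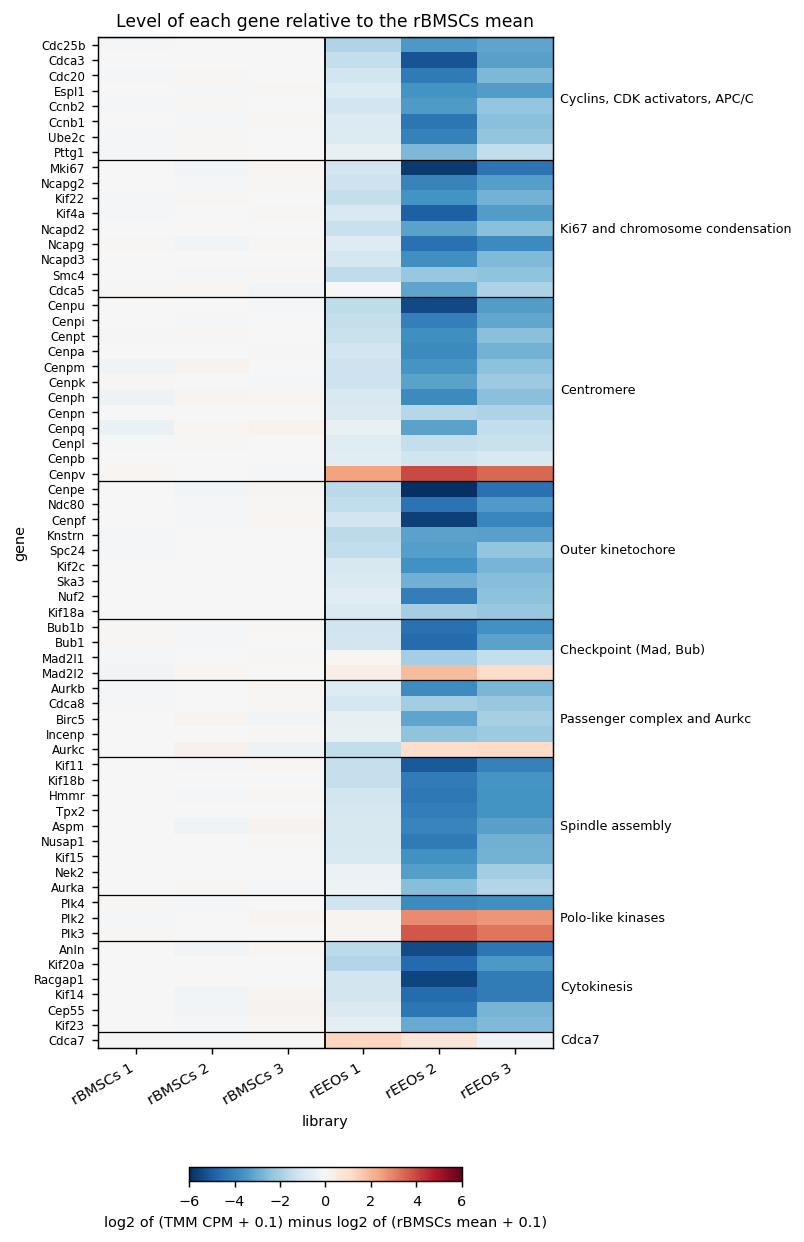
Level of each of the 66 mitotic genes in each of the 6 libraries, as log2 of TMM-scaled counts (CPM, with 0.1 added) minus the same of that gene's mean over the 3 rBMSCs libraries, with genes in rows by role. In most rows rEEOs replicate 1 is less far below rBMSCs than replicates 2 and 3, with median differences of -1.03, -3.66 and -2.69, and a few rows (Plk2, Plk3, Cenpv, Mad2l2) go the other way.

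By the quasi-likelihood test of edgeR, adjusted by Benjamini-Hochberg over the 10607 genes tested, 38 of the 66 genes were lower in rEEOs at an adjusted p below 0.05, beside 30.2% of all genes tested, and 4 were higher, beside 33.3%. With a log2 fold change beyond 2 as well, 29 were lower, beside 13.3%, and 3 were higher, beside 16.3%. All 66 passed the filter on low counts, and 64 had at least 10 counts in every library. The median log2 fold change of rEEOs over rBMSCs was -2.05 over the mitotic genes and 0.08 over all genes tested.

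The number of genes that passed changed with the libraries in the fit. Without rEEOs replicate 1, 60 of the 66 genes were lower, beside 38.6% of all genes, 5 were higher, beside 41.9%, and the median log2 fold change was -3.13. All 38 genes lower with the full set of libraries were also lower without replicate 1. The 22 further genes had negative fold changes with adjusted p between 0.0507 and 0.22 when replicate 1 was kept, and 10 of them had an unadjusted p below 0.05. Leaving out other libraries removed calls instead. Without rEEOs replicate 2, 30 of the 66 genes were lower, beside 27.4% of all genes. Without rEEOs replicate 3, 12 of the 66 were lower, a smaller share than the 25.7% of all genes. Without rBMSCs replicates 1, 2 and 3 the counts were 18, 17 and 18 of 66. These were shares near the 23.4%, 24.3% and 23.5% of all genes. The sign did not change for any of the 60 genes in these fits. Lower in all 6 of them were 12 genes: Cenpb, Smc4, Cenpl, Cdca8, Kif18a, Kif22, Knstrn, Cenpk, Ncapd2, Cenpn, Cdc25b and Spc24. The share of all genes tested that was lower in all 6 was not counted, so the 12 cannot be called more than usual.

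Overlap between the groups was rare. In CPM (counts scaled to library size with TMM), every rEEOs library was below every rBMSCs library in 58 genes, beside 35.9% of all genes tested, and above in 3 genes, beside 36.9%. These 3 were Cenpv, Plk3 and Mad2l2, and in Plk2, which was above in TPM, rEEOs replicate 1 was level with the highest rBMSCs library in CPM (78.67 against 78.75). For 1 gene taken alone, 3 libraries a group leave a two-sided exact permutation p of at least 0.1. The spread of the mitotic genes on the log2(CPM + 1) scale had a median SD of 0.07 in rBMSCs, beside 0.09 for all genes, and of 1.29 in rEEOs, beside 0.34 for all genes. Between rEEOs replicates 2 and 3 alone it was 0.55, beside 0.16. In TPM, the order of replicate 1 above 3 above 2 was shared by 56 of the 60 genes with a negative fold change. The share of all genes with this order was not counted. In the 60 genes the level in replicate 1 was 1.85 to 18.9 times the mean of replicates 2 and 3, with a median of 6.46.

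**Figure D2:**
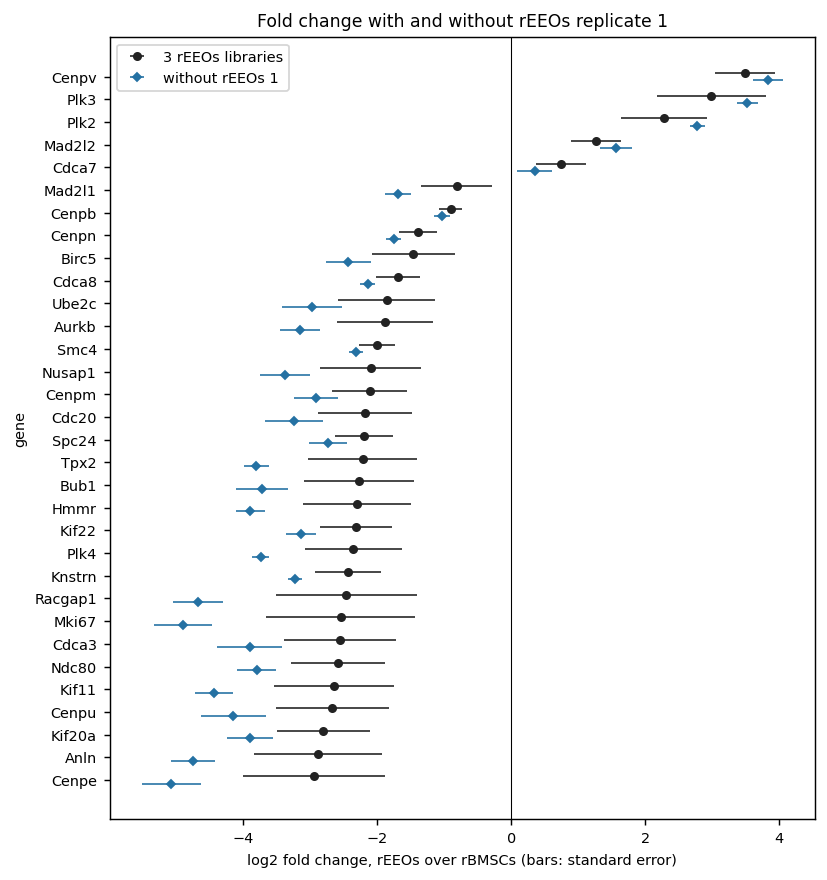
Log2 fold change of rEEOs over rBMSCs (bars show the SE) for the 32 mitotic genes with full statistics, with all 3 rEEOs libraries (black) and without rEEOs replicate 1 (blue). Without replicate 1 the genes left of zero lie farther to the left, such as Mki67 at -4.90 instead of -2.54, and Cenpv, Plk3, Plk2 and Mad2l2 lie farther to the right.

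Many mitotic promoters are known to carry a CHR motif, TTTGAA, bound by the DREAM and MuvB complexes, and CCAAT motifs, bound by NF-Y. The RefSeq sequences (assembly GRCr8) of 59 of the 66 genes were searched for both on both strands, from 250 bases before the start of the gene to 50 after. The promoters of the most abundant genes of 3 roles are shown here because they hold both a set of genes low in rEEOs and the pair of polo-like kinases that were high. Cdc20 (chr5:137255770-137255949, minus strand), Cdca8 (chr5:142483170-142483349, minus), Birc5 (chr10:103571996-103572175, plus), Cdca3 (chr4:159321053-159321232, plus) and Plk4 (chr2:125730330-125730509, plus) had negative fold changes. Plk2 (chr2:43702386-43702565, plus) and Plk3 (chr5:135848871-135849050, minus) had positive ones. Each line runs from 150 bases before the start to 30 after, and capitals mark TTTGAA or CCAAT or their reverse complements, TTCAAA for the former and ATTGG for the latter.
Cdc20: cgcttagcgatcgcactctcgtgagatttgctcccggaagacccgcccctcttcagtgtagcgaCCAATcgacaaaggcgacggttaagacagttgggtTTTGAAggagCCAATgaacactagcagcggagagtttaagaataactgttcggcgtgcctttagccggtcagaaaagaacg
Cdca8: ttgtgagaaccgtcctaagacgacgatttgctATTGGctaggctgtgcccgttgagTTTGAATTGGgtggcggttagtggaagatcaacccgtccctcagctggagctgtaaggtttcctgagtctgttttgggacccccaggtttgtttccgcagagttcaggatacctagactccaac
Birc5: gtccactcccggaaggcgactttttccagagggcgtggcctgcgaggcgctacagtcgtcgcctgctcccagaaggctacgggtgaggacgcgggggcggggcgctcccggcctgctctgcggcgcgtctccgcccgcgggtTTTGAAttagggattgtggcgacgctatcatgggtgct
Cdca3: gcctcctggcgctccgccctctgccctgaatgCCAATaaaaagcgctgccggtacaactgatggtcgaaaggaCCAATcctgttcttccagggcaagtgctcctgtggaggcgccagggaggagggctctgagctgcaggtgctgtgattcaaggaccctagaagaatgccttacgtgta
Plk4: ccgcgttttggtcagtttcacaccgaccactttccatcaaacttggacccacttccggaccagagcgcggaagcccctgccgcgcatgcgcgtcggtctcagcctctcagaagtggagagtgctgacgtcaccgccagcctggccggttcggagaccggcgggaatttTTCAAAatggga
Plk2: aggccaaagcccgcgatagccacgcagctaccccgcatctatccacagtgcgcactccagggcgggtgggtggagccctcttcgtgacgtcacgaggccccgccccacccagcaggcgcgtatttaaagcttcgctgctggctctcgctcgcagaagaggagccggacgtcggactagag
Plk3: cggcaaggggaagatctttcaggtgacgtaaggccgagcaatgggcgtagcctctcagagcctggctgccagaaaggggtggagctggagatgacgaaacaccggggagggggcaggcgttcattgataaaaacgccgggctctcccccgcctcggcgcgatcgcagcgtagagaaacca

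In the stretch shown, Cdc20 held 1 CHR and 2 CCAAT matches, Cdca8 the same with the CHR sharing a base with one CCAAT match, Birc5 and Plk4 1 CHR and no CCAAT, and Cdca3 2 CCAAT and no CHR. Plk2 and Plk3 held none of either motif there, and Plk2 had 1 CCAAT match farther down, at 44 bases after the start. Over the full 300 bases, TTTGAA was in 31 of the 59 promoters of mitotic genes (52.5%). It was in 30 of 53 with a negative fold change (56.6%) and in 1 of 6 with a positive one (16.7%). Of the 8374 tested genes with a promoter 11.6% held it, and 18.1% of all 27457 promoters. CCAAT was in 56.6% of the genes with a negative fold change, in 3 of the 6 with a positive one, in 38.2% of the genes tested and in 37.7% of all promoters. At least 2 CCAAT matches were in 39.6% of the genes with a negative fold change, in 0 of the 6 and in 13.7% of the genes tested. Both a CHR and at least 2 CCAAT matches were in 14 promoters (26.4%), against 1.70% of the genes tested. The shares among all genes lower in rEEOs were not counted, so these values do not tie a motif to the fold change. A match is a run of letters and says nothing of binding in these cells.

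**Figure D3:**
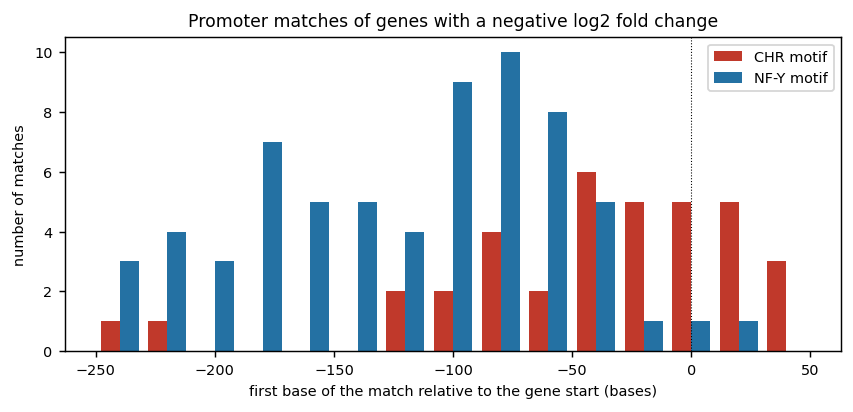
Number of CHR and NF-Y (CCAAT) motif matches in the promoters of the mitotic genes with a negative fold change, by distance in bases of the first base of a match from the start of the gene. CHR matches gather near the start: in a window chosen after the matches were seen, from 60 bases before to 50 after, 24 of 53 promoters of genes with a negative fold change (45.3%) held one, beside 3.43% of the genes tested.

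Mki67 and the condensins shape mitotic chromosomes. Mki67, the surface coat of mitotic chromosomes used as the standard stain for dividing cells, was at 67.1, 56.7 and 73.0 TPM in rBMSCs replicates 1 to 3 and at 30.9, 0.88 and 2.38 TPM in rEEOs replicates 1 to 3. Every rEEOs library was below every rBMSCs library, and rEEOs replicate 1 was the nearest to rBMSCs by a wide margin. The log2 fold change was -2.54 ± 1.11 (SE) with an adjusted p of 0.0855 by edgeR, and it was -4.90 with an adjusted p of 0.000104 without rEEOs replicate 1. Its level in replicate 1 was 18.9 times the mean of replicates 2 and 3, the highest such ratio among the 60 genes.

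Smc4, the ATPase core of condensin, was at 85.4, 73.7 and 87.3 TPM in rBMSCs and at 30.1, 12.96 and 12.91 TPM in rEEOs. The groups were far apart and rEEOs replicates 2 and 3 were nearly equal. Smc4 fell by 2.01 ± 0.26 on the log2 scale (SE; adjusted p = 0.000817). Kif22, a chromosome-bound kinesin that pushes chromosome arms outwards, was at 85.2, 87.0 and 87.0 TPM in rBMSCs and at 34.1, 5.27 and 9.19 TPM in rEEOs. No rEEOs library came near the rBMSCs range, and Kif22 fell by 2.32 ± 0.54 (adjusted p = 0.00915). Of the 9 genes of this role 5 were lower (also Ncapd2, Ncapd3 and Ncapg2, subunits of the condensins), beside 30.2% of all genes tested. All 9 were lower without rEEOs replicate 1, beside 38.6%. Cdca5, known as sororin and the guardian of sister cohesion, overlapped between the groups, with 13.1, 12.8 and 11.1 TPM in rBMSCs and 12.9, 0.93 and 2.45 TPM in rEEOs (adjusted p = 0.22, and 0.00122 without rEEOs replicate 1).

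The cyclins, the phosphatase that starts mitosis and the partners of the anaphase-promoting complex (APC/C) had a summed level of 695.5 to 726.9 TPM in rBMSCs, the highest of the roles there, and of 377.6, 33.7 and 98.0 TPM in rEEOs replicates 1 to 3. Ube2c, the ubiquitin-conjugating enzyme of the APC/C, was at 192, 204 and 205 TPM in rBMSCs and at 120, 8.22 and 28.7 TPM in rEEOs. All rEEOs libraries were below rBMSCs, with replicate 1 above the other two. The log2 fold change was -1.86 ± 0.73 (adjusted p = 0.0616) and, without replicate 1, -2.97 (adjusted p = 0.0011). Cdc20, the activator that hands substrates to the APC/C in mitosis, was at 139, 146 and 148 TPM in rBMSCs and at 68.5, 5.49 and 17.0 TPM in rEEOs. The same order of the rEEOs libraries was seen, with no overlap, and Cdc20 fell by 2.18 ± 0.71 (adjusted p = 0.0332). Cdca3, a trigger of mitotic entry through Wee1 destruction, was at 135, 135 and 137 TPM in rBMSCs and at 53.6, 2.60 and 10.7 TPM in rEEOs. No rEEOs library came near the narrow rBMSCs range, and it fell by 2.56 ± 0.84 (adjusted p = 0.0345).

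Ccnb1, the main mitotic cyclin, was at 54.0, 48.0 and 56.6 TPM in rBMSCs and at 31.7, 1.87 and 7.13 TPM in rEEOs, with no overlap and an adjusted p of 0.07. Cdc25b, the phosphatase that activates the mitotic kinase, was at 41.9, 42.9 and 43.8 TPM in rBMSCs and at 12.97, 2.85 and 3.77 TPM in rEEOs. Here rEEOs replicate 1 was also well below rBMSCs, and Cdc25b fell by 2.60 ± 0.45 (adjusted p = 0.00277). Of the 8 genes 4 were lower with all libraries (also Ccnb2), beside 30.2% of all genes tested, and 8 without rEEOs replicate 1, beside 38.6%. The others were Ccnb1, Ube2c, Pttg1 (securin, the inhibitor of separase) and Espl1 (separase, the protease that cuts cohesin). Reads of Ccnb2 and Espl1 were in part shared with similar sequences, since their expected counts are not whole.

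The chromosomal passenger complex corrects wrong attachments of chromosomes to the spindle. Cdca8 (borealin), its subunit at the centromere, was at 62.1, 64.5 and 69.8 TPM in rBMSCs and at 33.0, 11.2 and 10.4 TPM in rEEOs. No library overlapped, and Cdca8 fell by 1.69 ± 0.33 (adjusted p = 0.00479). Birc5 (survivin), its histone reader, was at 61.7, 63.0 and 53.3 TPM in rBMSCs and at 44.6, 4.65 and 11.3 TPM in rEEOs. Replicate 1 of rEEOs was close under the lowest rBMSCs library, and the adjusted p was 0.0789. Aurkb, its kinase, was at 48.4, 47.1 and 55.3 TPM in rBMSCs and at 30.9, 2.60 and 5.68 TPM in rEEOs (adjusted p = 0.0572). Its rEEOs libraries had the same order as those of Birc5. Of the 5 genes of this role 1 was lower with all libraries, a smaller share than the 30.2% of all genes tested, and 4 were lower without rEEOs replicate 1, beside 38.6%.

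Aurkc, a relative of Aurkb best known from germ cells, did not share this pattern. It was at 3.58, 2.97 and 2.00 TPM in rBMSCs and at 0.85, 4.55 and 5.05 TPM in rEEOs. Here rEEOs replicate 1 was the lowest of the 6 libraries and replicates 2 and 3 were the highest. The log2 fold change was 0.65 ± 0.68 (adjusted p = 0.431), and without replicate 1 it was 1.17 (adjusted p = 0.00861).

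**Figure D4:**
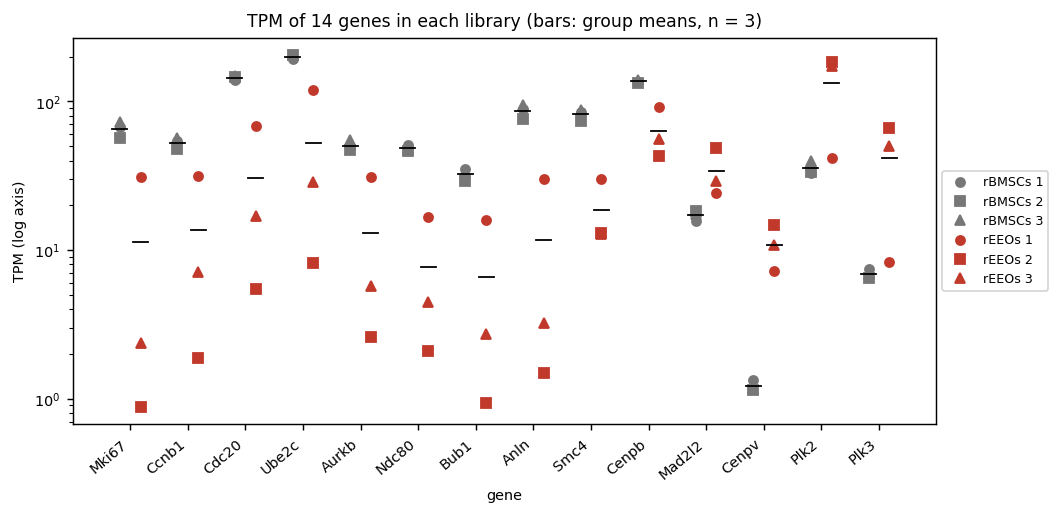
Level in TPM (log axis) of 14 mitotic genes in each of the 3 rBMSCs (grey) and 3 rEEOs (red) libraries, with bars at the group means. Mki67 runs from 56.7 to 73.0 TPM in rBMSCs and from 0.88 to 30.9 TPM in rEEOs, and rEEOs replicate 1 lies nearest to rBMSCs both in the genes that are low in rEEOs and in Plk2 and Plk3, which are high.

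At the inner centromere, 10 of 12 genes were lower, beside 30.2% of all genes tested, and 1 was higher, beside 33.3%. Another 1 (Cenpq) was not called. All but Cenpv were lower without rEEOs replicate 1, beside 38.6% of all genes. This group builds the chromatin base of the kinetochore. Cenpb, a binder of centromere repeats, was at 135, 134 and 140 TPM in rBMSCs and at 91.2, 43.1 and 55.7 TPM in rEEOs. It was the mildest of the calls, with a fall by 0.91 ± 0.17 (adjusted p = 0.00377) and no overlap. Cenpm was at 40.6, 50.6 and 45.1 TPM in rBMSCs and at 20.1, 2.76 and 5.81 TPM in rEEOs, and fell by 2.12 ± 0.55 (adjusted p = 0.0152). Cenpn was at 30.8, 28.7 and 29.1 TPM in rBMSCs and at 17.1, 6.6 and 6.39 TPM in rEEOs, and fell by 1.40 ± 0.28 (adjusted p = 0.00544). Both encode subunits of the constitutive centromere-associated network, and in both the rEEOs libraries were all below rBMSCs.

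Cenpa, the histone variant that marks the centromere, was at 27.9, 26.9 and 28.2 TPM in rBMSCs and at 12.8, 1.33 and 2.84 TPM in rEEOs, and fell by 2.17 ± 0.65 (adjusted p = 0.0247). Cenpu, of the same network, was at 15.4, 14.3 and 14.2 TPM in rBMSCs and at 5.36, 0.18 and 1.02 TPM in rEEOs. The level in rEEOs replicate 2 rests on 3 counts, the only case among the 66 genes of a library at 3 counts or fewer. Cenpu fell by 2.67 ± 0.84 (adjusted p = 0.0299).

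Cenpv went the opposite way. It was at 1.33, 1.15 and 1.16 TPM in rBMSCs and at 7.19, 14.7 and 10.8 TPM in rEEOs. All rEEOs libraries were above all rBMSCs libraries, and replicate 1 was again the rEEOs library nearest to rBMSCs. The log2 fold change was 3.49 ± 0.44 (adjusted p = 0.000727) and 3.83 without replicate 1. Among the 4 genes called higher it was the one that was called in all 6 fits that leave out a library.

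The outer kinetochore, which grips spindle microtubules, had 7 of 9 genes lower with all libraries, beside 30.2% of all genes tested. Without rEEOs replicate 1 all 9 were lower, beside 38.6%. Knstrn, a kinetochore and spindle adaptor, was at 88.9, 89.2 and 93.7 TPM in rBMSCs and at 32.3, 7.03 and 7.17 TPM in rEEOs, and fell by 2.44 ± 0.49 (adjusted p = 0.00525). Spc24, of the microtubule-binding NDC80 complex, was at 59.5, 59.2 and 62.7 TPM in rBMSCs and at 22.6, 4.26 and 9.00 TPM in rEEOs, and fell by 2.2 ± 0.44 (adjusted p = 0.00504). In both genes the groups were clearly apart. Ndc80 itself was at 50.7, 46.1 and 48.2 TPM in rBMSCs and at 16.6, 2.09 and 4.48 TPM in rEEOs, and fell by 2.59 ± 0.71 (adjusted p = 0.0178).

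Cenpe, the kinesin that carries chromosomes to the spindle equator, had the most negative fold change of the genes called. It was at 30.6, 25.3 and 33.3 TPM in rBMSCs and at 10.3, 0.29 and 1.02 TPM in rEEOs. Replicates 2 and 3 were the lowest, at 28 and 98 counts, while replicate 1 lay between them and rBMSCs. Cenpe fell by 2.94 ± 1.06 (adjusted p = 0.0478) and, without replicate 1, by 5.07. Cenpf, a large protein of the kinetochore corona, was at 28.6, 24.9 and 30.4 TPM in rBMSCs and at 13.3, 0.41 and 1.44 TPM in rEEOs, with no overlap and an adjusted p of 0.075. Nuf2 was the other gene of this role that did not pass (adjusted p = 0.0856).

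Spindle assembly genes followed the same order of libraries. Tpx2, the activator of Aurka on spindle microtubules, was at 82.8, 81.2 and 87.8 TPM in rBMSCs and at 44.3, 3.47 and 5.43 TPM in rEEOs. It had no overlap and just missed the threshold (adjusted p = 0.0507), with a log2 fold change of -2.22 ± 0.81 and of -3.81 without rEEOs replicate 1. Nusap1, a microtubule bundler, was at 47.3, 45.6 and 50.7 TPM in rBMSCs and at 25.4, 1.75 and 4.97 TPM in rEEOs, and fell by 2.10 ± 0.75 (adjusted p = 0.0471). Hmmr, a spindle pole protein, was at 46.0, 42.2 and 49.6 TPM in rBMSCs and at 22.7, 1.66 and 2.89 TPM in rEEOs, and fell by 2.31 ± 0.81 (adjusted p = 0.0441). These calls lie close to the threshold, and their groups were apart in every library.

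Kif11, the motor that pushes the spindle poles apart, was at 36.4, 33.2 and 41.1 TPM in rBMSCs and at 14.9, 0.81 and 1.72 TPM in rEEOs, and fell by 2.65 ± 0.90 (adjusted p = 0.0392). Of the 9 genes of this role 6 were lower (also Kif15, Kif18b and Aspm), beside 30.2% of all genes tested. All 9 were lower without rEEOs replicate 1, beside 38.6%. Aurka and Nek2, kinases of the centrosome, were at 84.7% and 82.0% of the rBMSCs mean in replicate 1 and at 12.4% and 7.41% in replicate 2, with adjusted p of 0.0854 and 0.108.

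Cytokinesis genes, which close the cleavage furrow, were 2 of 6 lower with all libraries, near the 30.2% of all genes tested, and 6 of 6 without rEEOs replicate 1, beside 38.6% of all genes. Racgap1, a subunit of the centralspindlin complex, was at 102, 94.8 and 104 TPM in rBMSCs and at 49.0, 1.58 and 4.24 TPM in rEEOs (adjusted p = 0.0794). Its value in rEEOs replicate 1 was 16.8 times the mean of replicates 2 and 3. Anln, an actin and septin scaffold of the furrow, was at 89.6, 75.6 and 94.3 TPM in rBMSCs and at 30.1, 1.49 and 3.24 TPM in rEEOs, and fell by 2.88 ± 0.96 (adjusted p = 0.0362). Kif20a, the motor that brings regulators to the midzone, was at 76.4, 74.2 and 78.3 TPM in rBMSCs and at 23.7, 2.18 and 5.40 TPM in rEEOs, and fell by 2.80 ± 0.69 (adjusted p = 0.0121). No rEEOs library reached the rBMSCs range in any of the 3 genes. Kif23, Cep55 and Kif14 did not pass, with adjusted p between 0.057 and 0.0588. Counts of Racgap1 and Anln are in part shared with similar sequences.

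The spindle checkpoint holds anaphase until all chromosomes are attached. Bub1, a checkpoint kinase, was at 34.9, 29.2 and 33.4 TPM in rBMSCs and at 16, 0.93 and 2.71 TPM in rEEOs, and fell by 2.27 ± 0.82 (adjusted p = 0.0479). Bub1b (BubR1), part of the APC/C inhibitor, was at 33.9, 28.9 and 34.2 TPM in rBMSCs and at 14.7, 1.04 and 2.02 TPM in rEEOs, and fell by 2.42 ± 0.81 (adjusted p = 0.038). Both had every rEEOs library below every rBMSCs library.

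Mad2l1, the Mad2 protein of the checkpoint, differed from both Bub kinases in replicate 1. It was at 31.8, 31.7 and 34.6 TPM in rBMSCs and at 43.6, 6.74 and 10.1 TPM in rEEOs. The groups overlapped, because rEEOs replicate 1 was above all rBMSCs libraries at 133% of their mean while replicates 2 and 3 were far below. The log2 fold change was -0.82 ± 0.54 (adjusted p = 0.217) and, without replicate 1, -1.69 (adjusted p = 0.00032). Mad2l2, which shares its name and fold but is known as a subunit of a translesion DNA polymerase and a repair regulator, was at 15.6, 18.4 and 17.4 TPM in rBMSCs and at 24.2, 48.5 and 29.0 TPM in rEEOs. All its rEEOs libraries were higher, and it rose by 1.26 ± 0.38 (adjusted p = 0.0248).

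The polo-like kinases split. Plk4, the master of centriole duplication, was at 29.2, 24.7 and 27.3 TPM in rBMSCs and at 12.3, 1.44 and 1.60 TPM in rEEOs, and fell by 2.36 ± 0.73 (adjusted p = 0.0277). Plk2, known as a stress- and growth-factor-induced kinase outside mitosis, was at 33.1, 33.4 and 39.8 TPM in rBMSCs and at 41.3, 184 and 174 TPM in rEEOs. Plk3, also a stress-response kinase, was at 7.40, 6.5 and 6.88 TPM in rBMSCs and at 8.29, 66.7 and 50.3 TPM in rEEOs. In Plk2 and Plk3 every rEEOs library was above rBMSCs, in TPM, but replicate 1 was only just above (and for Plk2 within the rBMSCs range in CPM) while replicates 2 and 3 were several times higher. Plk2 rose by 2.28 ± 0.64 (adjusted p = 0.0201) and Plk3 by 2.98 ± 0.81 (adjusted p = 0.0174), and without replicate 1 the values were 2.77 and 3.52. Of the 6 fits that leave out a library, Plk2 was called in 1, Plk3 in 2 and Mad2l2 in 2. Replicate 1 stood at 0.231 of the mean of replicates 2 and 3 for Plk2 and at 0.142 for Plk3, and at 8.10 times that mean for Plk4.

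Cdca7, a chromatin remodelling cofactor that carries a cell-division name, was at 8.52, 8.11 and 9.37 TPM in rBMSCs and at 22.7, 10.4 and 5.77 TPM in rEEOs. The rEEOs libraries lay on both sides of rBMSCs, and Cdca7 was the gene that did not pass with all libraries (adjusted p = 0.123) or without replicate 1 (adjusted p = 0.263). Of the 66 genes it and Aurkc were those with a positive fold change that did not pass with all libraries.

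Other cell-cycle genes were taken from 4 lists drawn up by function. Among 30 further mitotic genes 19 were lower and 2 were higher with all libraries, beside 30.2% and 33.3% of all genes tested. Without rEEOs replicate 1 the counts were 26 and 2, beside 38.6% and 41.9%. The median log2 fold change with all libraries was -1.45. Those lower included Mastl, the kinase that shields mitotic phosphorylation, which was at 21.1, 19.2 and 23.0 TPM in rBMSCs and at 7.40, 0.29 and 1.33 TPM in rEEOs (adjusted p = 0.0319). Those higher were Zwint, a kinetochore linker, at 39.5, 37.2 and 41.0 TPM in rBMSCs and at 70.6, 65.5 and 88.4 TPM in rEEOs (adjusted p = 0.00266), and Ccnf (adjusted p = 0.00725). In Zwint all rEEOs libraries were above all rBMSCs libraries, and in TPM replicate 1 lay within the range of the other rEEOs libraries.

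The replication genes of S phase, which precede mitosis in the cycle, had 9 of 31 genes lower by edgeR with all libraries, a share near the 30.2% of all genes tested, and 0 higher, beside 33.3% (also 0 at an unadjusted p below 0.05, and with DESeq2 and limma). Without rEEOs replicate 1, 29 of the 31 were lower, beside 38.6% of all genes. Replicate 1 was the highest rEEOs library for all 31. A typical S phase gene stood at 86.3% of its rBMSCs mean in replicate 1, with 11 genes at or above that mean, and at 25.7% and 32.8% in replicates 2 and 3. The same medians for the 66 mitotic genes, also in CPM, were 49.0%, 7.70% and 15.5%. Rrm2, a subunit of ribonucleotide reductase, was at 132, 128 and 143 TPM in rBMSCs and at 131, 3.56 and 10.4 TPM in rEEOs. In TPM, replicate 1 was thus within the rBMSCs range and the other rEEOs libraries far below. Its adjusted p was 0.257, and 0.000269 without replicate 1. Mcm6, a subunit of the replicative helicase, was at 54.3, 49.4 and 54.3 TPM in rBMSCs and at 71.8, 7.08 and 12.2 TPM in rEEOs (adjusted p = 0.369, and 0.000223 without replicate 1). There replicate 1 was above all rBMSCs libraries.

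Subunits of the APC/C and of cohesin, which act in every cycle but are also present in resting cells, had 13 of 23 genes lower and 1 higher, beside 30.2% and 33.3% of all genes tested. Without rEEOs replicate 1, 17 were lower and 2 higher, beside 38.6% and 41.9%. The median log2 fold change of these subunits with all libraries was -0.65, with medians of 68.3%, 57.3% and 65.1% of the rBMSCs mean in rEEOs replicates 1 to 3. Of 9 genes of cell-cycle restraint 4 were higher and 3 lower, shares near the 33.3% and 30.2% of all genes tested. Cdkn1c, an inhibitor of cyclin-dependent kinases, was at 0.47, 0.60 and 0.30 TPM in rBMSCs and at 14.6, 11.9 and 9.50 TPM in rEEOs (adjusted p = 4.54e-05). Cdkn2b, an inhibitor of the kinases of early cycle, was at 0.05, 0.10 and 0.09 TPM in rBMSCs, which is 1 to 2 counts, and at 10.2, 16 and 7.15 TPM in rEEOs (adjusted p = 8.41e-05). In both genes all rEEOs libraries were above rBMSCs, replicate 1 included. Cdkn1a and Ccng2 were also higher. Cdkn2c, another such inhibitor, was at 56.5, 52.6 and 49.9 TPM in rBMSCs and at 14.3, 4.44 and 4.25 TPM in rEEOs (adjusted p = 0.00112), and Cdkn1b and Rbl1 were also lower.

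**Figure D5:**
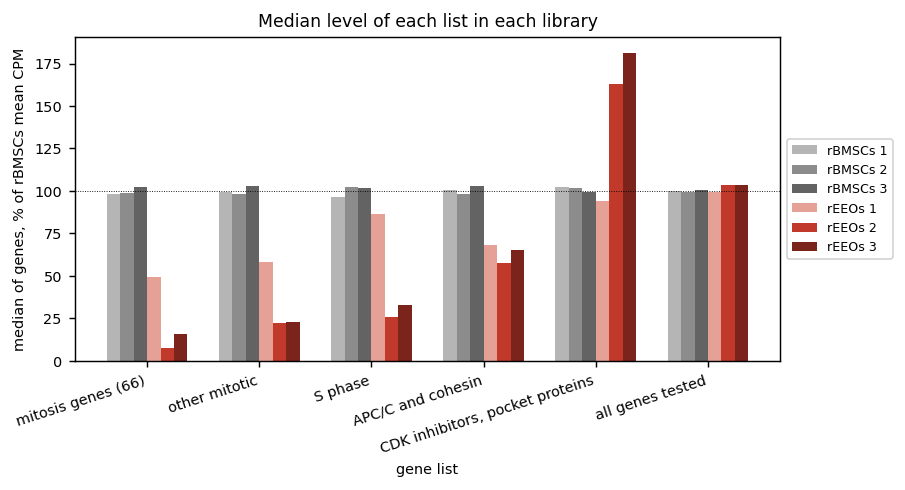
Median level of each gene list in each rBMSCs (grey) and rEEOs (red) library, as a percentage of each gene's rBMSCs mean CPM. The 66 mitotic genes lie at 49.0%, 7.70% and 15.5% in rEEOs replicates 1 to 3 and the S phase genes at 86.3%, 25.7% and 32.8%, while the median over all genes tested lies in rEEOs between 99.3% and 103.6%.

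Transcript length also varied with the contrast between rEEOs libraries. Over all genes tested, the median log2 level of replicate 1 minus the mean of replicates 2 and 3 went from -0.45 in the shortest of 5 equal length classes to 0.59 in the longest. The same medians for the mitotic genes with a negative fold change were 1.84 in the shortest and 2.99 in the longest class, and in each class, with 10 to 14 of these genes, they were above those of all genes. Over the 60 genes the median was 2.33, and 2.22 with the trend on length removed from each library. The cause of the higher level in replicate 1 was not tested. With the trend removed, 40 of the 66 genes were lower in rEEOs than in rBMSCs, beside 31.1% of all genes tested. Another 4 were higher, beside 3658 of all 10607 genes.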

How the data were processed

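Poly(A) RNA was sequenced by the authors from 6 samples, 3 a group. Per the labels and the study's methods, reads were trimmed with Trim Galore and aligned with Bowtie2 2.2.5, and RSEM estimated expression; the submitters' processing notes name the build Rnor_6.0. The deposited table gives an expected count for each gene and library, not normalized and not whole for 7.31% to 8.44% of values (tolerance 0.005), together with the authors' TPM and FPKM, of which FPKM was used only for relative transcript lengths. The copy analysed here holds 13728 genes, ends part-way through its last row (23 of 27 fields) and holds 81.3% to 82.7% of each library's TPM.

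After rounding of the expected counts, the 10607 genes that reached 10 counts in 3 or more libraries were tested with edgeR 4.0.16 in R 4.3.3 (TMM, estimateDisp, glmQLFit, glmQLFTest), with a term for cell type alone and a Benjamini-Hochberg threshold of 0.05. TMM factors were 0.866 to 0.885 in rBMSCs and 1.10 to 1.20 in rEEOs. The standard error is the log2 fold change divided by the square root of F. A count of 3 was taken as the floor, between 0.195 and 0.287 CPM, which covers counting error only. On simulated data for this comparison, where 200 of 10607 genes were given a log2 change of 3, 187 were recovered with 6 false calls. In the real data 3529 of the 10607 genes were called higher and 3199 lower. Whether the values from the simulation hold there was not tested.

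The rule for the mitotic genes uses no difference between samples, but it and all lists were chosen with earlier results of these data known. Full statistics were given for the 3 most abundant genes of each role, the 5 highest and 5 lowest fold changes among calls and genes that go against their role. The genes named from the other lists, the further members named and the promoter window near the start were chosen after their values were seen. Levels between genes are compared in TPM, which accounts for length. Promoters are RefSeq sequences of GRCr8, the first listed for a gene, with 59 of 66 genes matched; Aurkb, Incenp, Ube2c, Racgap1, Kif14, Cenpt and Tpx2 had no match. Alternatives were the DESeq2 1.42.0 Wald test, DESeq2 size factors, library size only, filters of 1 count in any library and of 50 counts in 3, limma 3.58.1 on log2(TPM + 1) and log2(TPM + 0.1), each library left out in turn, a replicate block, and removal of a length trend (lowess span 0.3). Python 3.11.15, pandas 2.3.3, numpy 2.4.6 and matplotlib 3.10.9 were used.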

Additional observations from a re-analysis of the deposited data

How the results depend on the processing

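The direction of the fold change did not reverse for any of the 32 genes with full statistics in any of the alternatives run: of 480 gene values 370 kept their side of the threshold, 78 lost the call and 32 gained it. The 38 lower calls became 57 with the DESeq2 Wald test, 38 with DESeq2 size factors, 34 with the filter of 1 count, 38 of 65 with the filter of 50 counts, 40 with the length trend removed, and 52 and 54 with limma on log2(TPM + 0.1) and log2(TPM + 1). With library size only the lower calls were 18, beside 20.6% of all genes tested, with 6 beyond a log2 fold change of -2. The median over all genes then moved from 0.08 to 0.46 and the share of calls that were higher from 52.5% to 68.8%. The median of the mitotic genes below that of all genes was -2.13 with TMM and -2.09 with library size only. That scaling also gave 10 other mitotic genes lower, 5 APC/C and cohesin genes lower and 4 higher, and 2 S phase genes lower. Both limma fits gave 1 mitotic gene higher and 48 lower beyond a log2 fold change of 2, and 1 other mitotic gene higher. The DESeq2 Wald test gave 15 S phase genes lower, and removal of the length trend 3 APC/C and cohesin genes higher.

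Leaving out 1 library at a time gave 12 to 60 mitotic genes lower, 4 to 55 lower beyond -2, 1 to 5 higher, 1 to 3 higher beyond 2 and a median of -3.13 to -1.60. Of all genes tested, 23.4% to 38.6% were lower in these fits. The ranges for the other lists were 8 to 26 lower (2 to 2 higher) for other mitotic genes, 7 to 17 lower and 1 to 2 higher for the APC/C and cohesin, 4 to 29 lower and 0 to 1 higher for S phase, and 2 to 3 lower and 3 to 5 higher for restraint genes. Same-numbered libraries deviated together with correlations of 0.142, 0.159 and -0.126, and not every sample correlated best with its own number. With 3 libraries a group, these values cannot decide whether same-numbered libraries were handled together. With the replicate block, 57 mitotic genes were lower, 47 of them beyond -2, and 16 S phase genes were lower, beside 29.6% of all genes tested. The cause of the differences between alternatives was not tested.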
